A study of Mus musculus with 4 samples.

Results

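Ccl2, Ccl5, Ccl7, Ccl8, Ccl11, Ccl12 and Ccl20 encode CC chemokines, and their transcripts were followed here in CT26, a cultured line from a mouse colon carcinoma. The 7 genes were selected by name, with their values in these data already known. Ccl11 and Ccl7 stood out in the Senexin B comparison, so the differences of the 7 are given as a description and no test is made on them. Each gene is represented by the probe set whose annotation gives that single symbol, and each of the 7 had exactly 1 such probe set, out of 22180 named genes. RNA was measured on 4 Affymetrix Mouse Gene 2.0 ST arrays, 1 for each group. One culture of CT26 was given the solvent DMSO and another 5 µM Senexin B, both for 24 h. Senexin B blocks CDK8 and its paralog CDK19, kinases that associate with the Mediator complex. The remaining pair was CT26-pLKO.1, which carries a lentiviral hairpin vector, and CT26-shCDK8, named for a hairpin against Cdk8. The labels give neither the number of clones behind these lines nor any treatment of them.

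CC chemokines are small secreted proteins with a pair of adjacent cysteines near the amino terminus, and they draw leukocytes along a gradient by way of G protein-coupled CC receptors. Ccl2, Ccl7, Ccl8 and Ccl12 belong to the monocyte chemoattractant proteins, of which Ccl2, Ccl7 and Ccl12 act on CCR2. Ccl11 is eotaxin, which draws eosinophils through CCR3. Ccl5, or RANTES, acts on T cells and monocytes, and Ccl20 acts on CCR6, which T helper 17 cells, dendritic cells and B cells carry. Tumour cells and fibroblasts are known sources of several of these ligands, and NF-kappaB, STAT factors and AP-1 are known regulators of them.

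With 1 array per group there was no replicate, so no difference has an error or a p-value, and every difference below is between 2 arrays on the log2 scale. A value of 5.98, the 40th percentile of all gene values, served as the limit under which a gene was taken to be near background. The difference between the control arrays, pLKO.1 minus DMSO, is given as a measured yardstick, although these controls differ in vector and in solvent and each also serves 1 of the comparisons. Array medians lay between 5.99 and 6.04 and the arrays correlated across probe sets at a Pearson's r of 0.982 to 0.990. Cdk8 read 10.69 in DMSO, 10.58 in Senexin B, 10.79 in pLKO.1 and 9.07 in shCDK8, a 3.31-fold reduction from the vector line that fits the label.

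In Senexin B-treated cells Ccl11 and Ccl7 were far higher than in DMSO-treated cells, and the other 5 members were less than 2-fold apart, Ccl8 and Ccl12 from values under the limit on every array. In the line labelled shCDK8 none of the 7 differed 2-fold from the vector line. At least 2-fold higher with Senexin B were 2 of the 7 members, beside 0.514% of all genes, and 0 were 2-fold lower, beside 0.194%. For shCDK8 minus pLKO.1 the member counts were 0 higher, beside 0.234% of all genes, and 0 lower, beside 0.239%. Between the controls they were again 0 and 0, beside 0.108% and 0.0496%. The members were chosen with the Senexin B values known, so nothing is read from that count. The median difference of the 7 was 0.60 for Senexin B, -0.038 for shCDK8 and -0.16 between the controls, and the medians over all genes were -0.0081, 0.013 and -0.019. The value of 0.60 is that of Ccl8, a gene under the limit on every array. Among the 5 members that reached the limit the medians were 0.92 and -0.36, and with low values raised to the limit both medians of the 7 were 0.

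**Figure D1:**
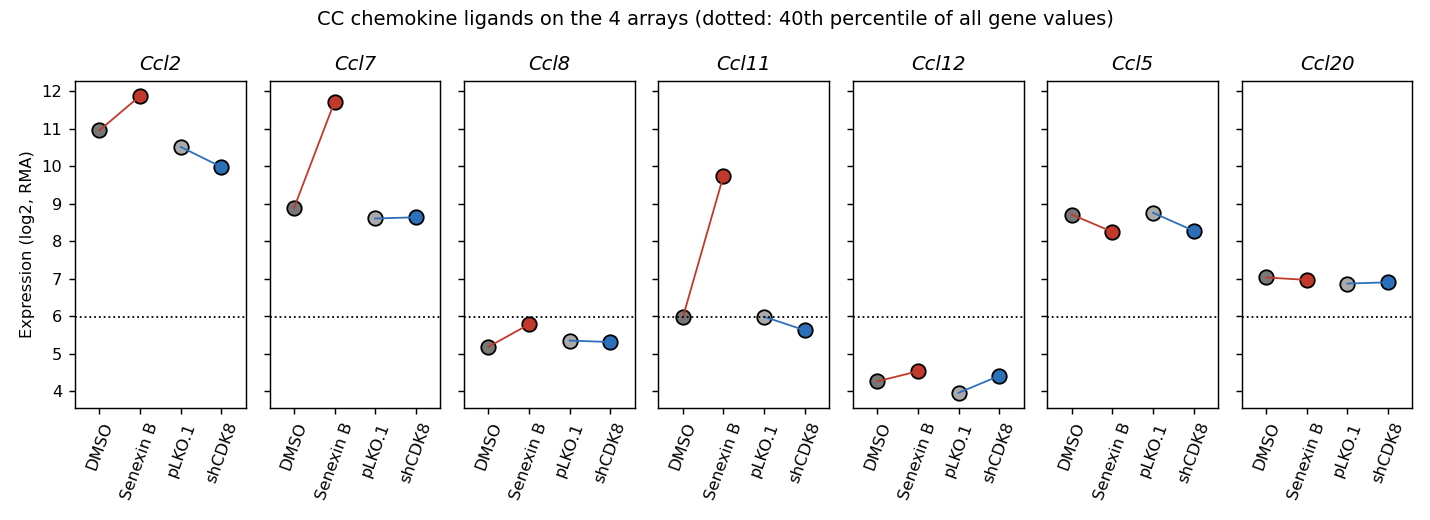
Log2 expression (RMA) of each of the 7 CC ligands on the 4 arrays, 1 point per array, with lines joining the arrays of each comparison and a dotted line at the limit of 5.98. Ccl11 and Ccl7 stand apart on the Senexin B array, at 9.75 and 11.73, while their other 3 points lie together; Ccl8 and Ccl12 stay under the limit on every array.

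Ccl11 read 5.97 in DMSO, 9.75 in Senexin B, 5.99 in pLKO.1 and 5.63 in shCDK8. The Senexin B array alone was high, and the other arrays lay around the limit, where the array hardly separates a low transcript from background. Senexin B minus DMSO was 3.78, but the DMSO value itself lay just under the limit. Measured from the limit the difference was 3.77, that is at least 13.7-fold higher, and Ccl11 ranked first among all 22180 genes both with the values as deposited and with low values raised to the limit. With pLKO.1 as the reference the difference was 3.76. The control arrays differed by 0.018. In shCDK8 Ccl11 was at -0.36 from pLKO.1, but at -0.012 once values were raised to the limit, so that difference lay almost wholly under it.

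Ccl7, a monocyte chemoattractant that binds CCR1, CCR2 and CCR3, read 8.88 in DMSO, 11.73 in Senexin B, 8.61 in pLKO.1 and 8.64 in shCDK8. It was well over the limit on all arrays, unlike Ccl11, and again high on the Senexin B array alone. The difference with Senexin B was 2.84, or 7.16-fold, rank 5 from the top among all genes and rank 4 with low values raised to the limit. Against pLKO.1 it was 3.11, or 8.66-fold. The line labelled shCDK8 differed from the vector line by 0.031, a smaller gap than the -0.27 of pLKO.1 minus DMSO.

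Ccl2, the main ligand of CCR2 and a chemokine made by many tumour cells, read 10.96 in DMSO, 11.88 in Senexin B, 10.52 in pLKO.1 and 9.98 in shCDK8. Its values were spread over all 4 arrays rather than set apart on one. The Senexin B difference was 0.92, a 1.89-fold difference just inside 2-fold, and Ccl2 is the member nearest to that threshold. With pLKO.1 as the reference it was 1.36, or 2.57-fold, and so past the threshold. In shCDK8 it was at -0.53, 1.45-fold lower than pLKO.1, and at -0.98 against DMSO, because the controls themselves differed by -0.44. Ccl2 was thus highest with Senexin B and lowest in shCDK8, but the gap from pLKO.1 to shCDK8 was little larger than the gap between the controls.

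Ccl8, a chemoattractant of the same subfamily, read 5.18 in DMSO, 5.79 in Senexin B, 5.35 in pLKO.1 and 5.31 in shCDK8. All these values lay under the limit, and the Senexin B difference of 0.60 became 0 when values were raised to it. Ccl12, the mouse chemokine MCP-5, read 4.27 in DMSO, 4.53 in Senexin B, 3.96 in pLKO.1 and 4.41 in shCDK8, likewise under the limit throughout. Its differences were 0.27 with Senexin B and 0.45 in shCDK8, beside -0.31 between the controls, and they too became 0 at the limit. Ccl8 and Ccl12 were therefore taken as near background on every array, and the sizes of their differences carry little weight.

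RefSeq promoter windows (GRCm38.p6) could be matched to 3 of the 7 members, Ccl8, Ccl12 and Ccl20. No window could be matched to Ccl11 or Ccl7, so their promoters are not shown. Ccl8 and Ccl12 lie in the same run of genes on chromosome 11 as Ccl11 and yet did not stand out with it, while Ccl20 lies on chromosome 1. Each line gives the 100 bases before the annotated start, on the plus strand: chr11:82115085-82115184 for Ccl8, chr11:82101745-82101844 for Ccl12 and chr1:83116666-83116765 for Ccl20. Capitals mark a TATA box (TATAAA) in the first and second and a match to the NF-kappaB motif (GGGRNNYYCC) in the third. R stands for A or G, Y for C or T and N for any base. The NF-kappaB match lies on the minus strand, so the capitals show its reverse complement.
Ccl8: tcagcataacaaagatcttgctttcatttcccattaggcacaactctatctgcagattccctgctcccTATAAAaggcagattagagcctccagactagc
Ccl12: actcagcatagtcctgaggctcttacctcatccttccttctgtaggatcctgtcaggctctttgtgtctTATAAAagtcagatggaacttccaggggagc
Ccl20: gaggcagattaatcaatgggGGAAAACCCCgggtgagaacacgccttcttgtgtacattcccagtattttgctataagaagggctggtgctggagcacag

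The TATA box begins 32 bases before the start in Ccl8 and 31 in Ccl12, and the NF-kappaB match 80 bases before the start in Ccl20. Both strands of the 250 bases before each start were searched for TATAAA, for the AP-1 motif TGANTCA, for the STAT motif TTCNNNGAA and for the NF-kappaB motif, and the matches marked above were the only ones in these windows. Of 32851 RefSeq windows of that length 12.4% held TATAAA, 6.75% the AP-1 motif, 7.02% the STAT motif and 7.25% the NF-kappaB motif. A match describes the letters only and is no evidence of a bound factor.

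Ccl5 read 8.71 in DMSO, 8.25 in Senexin B, 8.76 in pLKO.1 and 8.28 in shCDK8. The controls differed by only 0.050, and the treated culture and the hairpin line both lay under both of them. The differences were -0.46 with Senexin B and -0.48 in shCDK8, that is 1.38-fold and 1.39-fold lower. Ccl5 was thereby the single member lower in both comparisons. How many of all genes were lower in both was not counted, so nothing is read from that. Neither difference reached 1.5-fold, and no replicate shows how far cultures of 1 group vary.

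Ccl20 read 7.04 in DMSO, 6.97 in Senexin B, 6.87 in pLKO.1 and 6.91 in shCDK8. Its range over the 4 arrays was 0.16, the smallest among the 7, and the largest gap was the one between the controls. No difference in Ccl20 with inhibitor or hairpin was larger than that.

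Across the 7 members, 5 had their highest value on the Senexin B array, namely Ccl2, Ccl7, Ccl8, Ccl11 and Ccl12, all of them neighbours on chromosome 11. Of all genes 28.0% had their highest value there, and of the other CC ligands 3 of 12. The members were chosen with these values known, so nothing is read from the count of 5. Ccl8 and Ccl12 also lay under the limit on every array, so which array was highest carries little weight for them. The range over the 4 arrays was 4.12 for Ccl11, 3.11 for Ccl7 and 1.90 for Ccl2, and at most 0.60 for the other 4. The members thus differed widely among themselves.

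**Figure D2:**
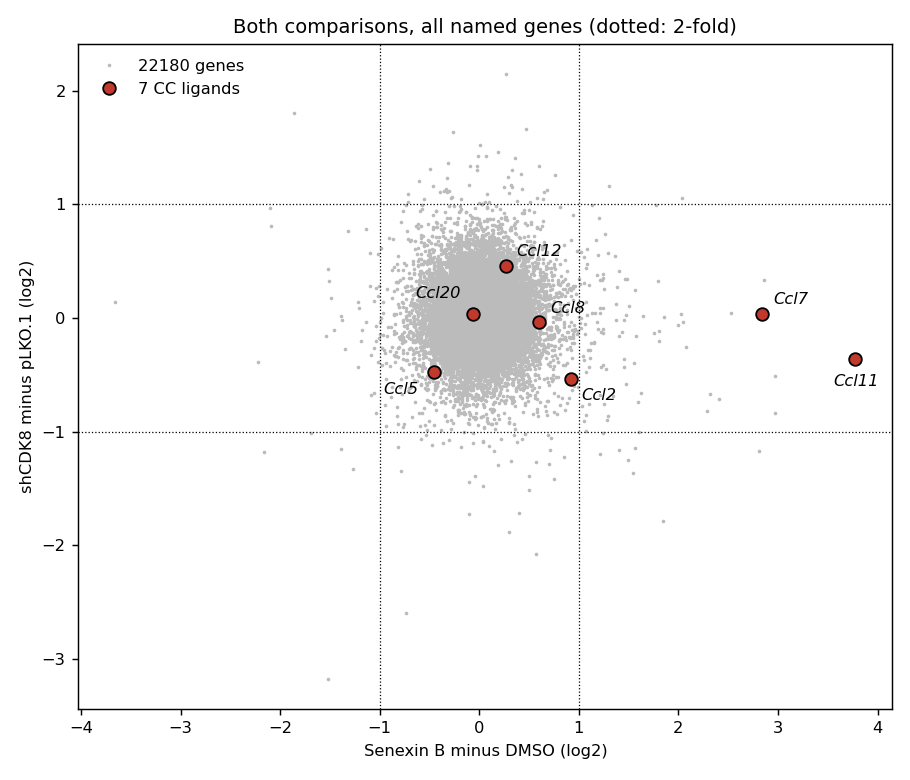
Difference of log2 expression for Senexin B minus DMSO (horizontal) against shCDK8 minus pLKO.1 (vertical), with 22180 named genes in grey, the 7 CC ligands in red and dotted lines at 2-fold. Ccl11 (3.78 and -0.36) and Ccl7 (2.84 and 0.031) lie far to the right near the horizontal midline, and the other 5 lie within 2-fold on both axes.

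The remaining CC ligands did not share the pattern of Ccl11 and Ccl7. Of 17 further ligands listed, 12 had a probe set of their own, and 0 of these 12 were 2-fold apart in either direction in either comparison or between the controls. Of all genes 0.514% were 2-fold higher and 0.194% lower with Senexin B, and 0.234% and 0.239% in shCDK8. Between the controls the shares were 0.108% and 0.0496%, so a count of 0 in so short a list says little. The median of the 12 was -0.023 with Senexin B, with 6 above 0 and 6 below, and -0.12 in shCDK8. Ccl24, eotaxin-2, read 5.63 in DMSO, 5.88 in Senexin B, 5.97 in pLKO.1 and 5.87 in shCDK8, and Ccl26 was at -0.57 with Senexin B from values under the limit. Neither of these eotaxin-type ligands had a difference near that of Ccl11, but both lay under the limit on every array, so the contrast says little. Of the 12 ligands 7 reached the limit on at least 1 array. Ccl1, the next ligand gene along the chromosome, was at 0.47, under the limit on every array.

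Among ligands over the limit on all arrays, Ccl25, known from thymus and small intestine, was at -0.18 with Senexin B and -0.15 in shCDK8, and Ccl9 at -0.083 and -0.26. Ccl17, a ligand of CCR4, read 6.61 in shCDK8 and between 5.96 and 5.98 elsewhere, a difference of 0.63 that was the largest for a ligand in that line. A further 33 probe sets were annotated to several genes including Ccl19, Ccl21 or Ccl27 copies. These cannot be assigned to 1 gene, none of them involved a member, and their differences lay between -0.31 and 0.30 with Senexin B and between -0.44 and 0.30 in shCDK8.

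**Figure D3:**
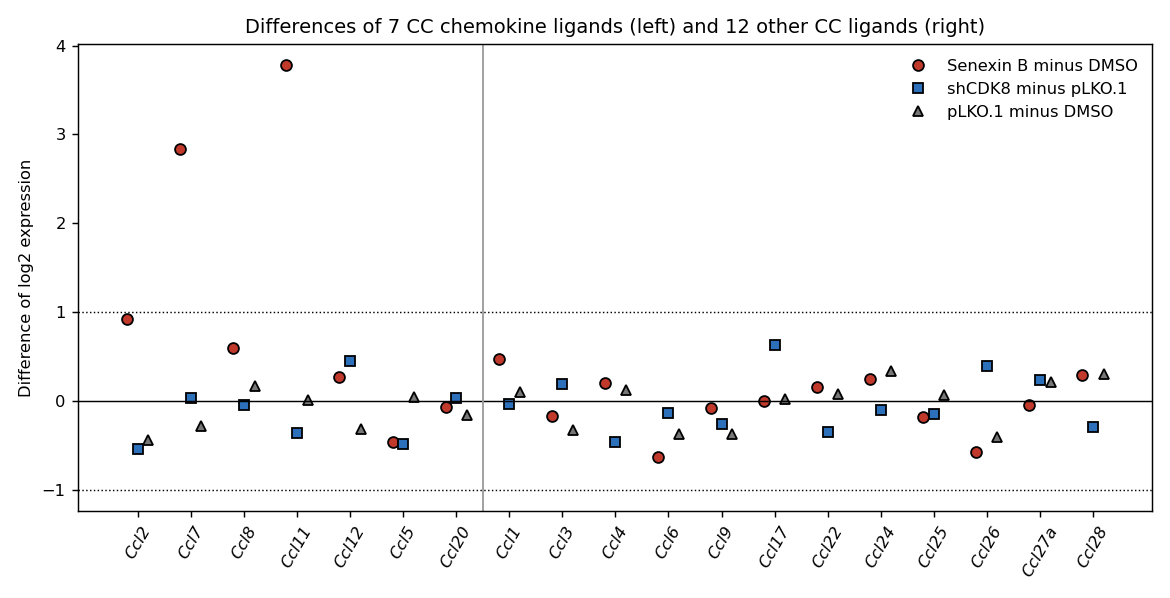
Difference of log2 expression for the 7 CC ligands (left of the grey line) and 12 other CC ligands (right), with circles for Senexin B minus DMSO, squares for shCDK8 minus pLKO.1 and triangles for pLKO.1 minus DMSO, 1 value each. Only the circles of Ccl11 and Ccl7 cross the dotted 2-fold lines, and every square and triangle lies within them.

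The receptors for these ligands were mostly near background. Of 14 CC and atypical receptors measured, 5 reached the limit on at least 1 array and 0 were 2-fold apart in either comparison. The shares over all genes were 0.514% higher and 0.194% lower with Senexin B, and 0.234% and 0.239% in shCDK8. Ccr3, the eotaxin receptor, read between 3.59 and 3.70, and Ccr2, a receptor of Ccl2, Ccl7 and Ccl12, between 4.87 and 5.24. Both lay under the limit on every array. Ackr2, a decoy receptor that takes up inflammatory CC chemokines, read between 6.89 and 7.07. Ccr8, a receptor of Ccl1, was at 0.58 with Senexin B and 0.79 in shCDK8, from values of 5.32 in DMSO and 5.56 in pLKO.1, both under the limit. Its Senexin B value of 5.90 lay under the limit too. With values raised to the limit these differences were 0 and 0.38.

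Cytokines that induce CC chemokines were likewise low. Of 13 listed, 5 reached the limit on some array and 0 were 2-fold apart with Senexin B or in shCDK8. Over all genes 0.514% were higher and 0.194% lower with Senexin B, and 0.234% and 0.239% in shCDK8. Tnf stayed under the limit at 5.53 to 5.89, Il1b at 4.12 to 4.85 and Il4, which together with Il13 induces eotaxin, at 5.19 to 5.50. Il13 itself lay around the limit, at 5.89 in DMSO, 6.12 in Senexin B, 5.99 in pLKO.1 and 5.79 in shCDK8. Osm, oncostatin M, reached it only in Senexin B, at 6.01. With Senexin B 8 of the 13 were above 0 and 5 below, and nothing is read from that count. Lif, the one clearly measured cytokine of the list, was at -0.32 with Senexin B. Il33, an alarmin of the interleukin-1 family, was at -0.93 in shCDK8. Its shCDK8 value lay under the limit, and with values raised to the limit the difference was -0.54. Tslp, an epithelial cytokine, was at -0.69 in shCDK8, but it also differed by 0.66 between the controls. Its DMSO and shCDK8 values lay under the limit, and with values raised to it the shCDK8 difference was -0.22.

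The receptors for such cytokines were all measured over the limit, and 14 of 17 were higher with Senexin B. The share of all genes above 0 was not counted, so nothing is read from that count. At 2-fold higher there were 0, beside 0.514% of all genes. The median of the list was 0.30, beside -0.032 between the controls, -0.0032 in shCDK8 and -0.0081 for all genes with Senexin B. Osmr, which with Il6st forms the oncostatin M receptor, was highest at 0.95, and Il6st was at 0.64. Il4ra, the shared chain of the interleukin-4 and interleukin-13 receptors upstream of eotaxin, was at 0.47, while its partner Il13ra1 was at -0.76. Tlr2, a sensor of bacterial lipoproteins, was at 0.63 and Tnfrsf1b, a receptor of tumour necrosis factor, at 0.59.

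Of 19 measured transcription factors and feedback genes, Irf7 was the single one 2-fold apart, at 1.21 with Senexin B and -1.20 in shCDK8. Of all genes 0.514% were 2-fold higher with Senexin B and 0.239% 2-fold lower in shCDK8. Irf7 also differed by 1.33 between the controls and read 8.84 in Senexin B beside 8.96 in pLKO.1. Its part in the chemokine differences was not tested. Cebpb, a factor of acute-phase and cytokine genes, was at 0.81 with Senexin B, -0.18 in shCDK8 and -0.12 between the controls. Stat6, the factor downstream of interleukin-4, was at 0.063 and Rela, the p65 subunit of NF-kappaB, at -0.083. The NF-kappaB feedback genes Nfkbia and Tnfaip3 were at 0.20 and 0.017. The median of the list was 0.077 with Senexin B and 0.018 in shCDK8.

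Genes acting on chemokine transcripts or proteins gave 0 of 8 at 2-fold. Over all genes the shares were 0.514% higher and 0.194% lower with Senexin B, and 0.234% and 0.239% in shCDK8. Zfp36l2 and Zfp36l1, which promote the decay of transcripts rich in AU elements, were at 0.60 and 0.42 with Senexin B, and Zc3h12a, the nuclease Regnase-1, was at 0.29. Zfp36 was at 0.11, while Khsrp, Elavl1 and Hnrnpd were at -0.20, -0.11 and -0.027. Of the 8, 5 were above 0 and 3 below, so the list did not move as one. Dpp4, a peptidase that trims Ccl11 and Ccl5, stayed under the limit on all arrays, at 4.25 to 4.90.

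On chromosome 11 the members Ccl2, Ccl7, Ccl11, Ccl12 and Ccl8 follow each other in that RefSeq order, and no other gene with a probe set of its own lies between them. The largest differences with Senexin B belonged to Ccl7 and Ccl11 in the middle of the run, with 0.92 for Ccl2 on one side and 0.27 for Ccl12 and 0.60 for Ccl8 on the other. The 3 nearest genes before Ccl2 were Asic2, 1700071K01Rik and 5530401A14Rik, at 0.23, -0.61 and -0.029. Between Ccl8 and Ccl5, farther along the same chromosome, lay 29 genes with a probe set. With Senexin B 1 of the 29 was 2-fold higher, beside 0.514% of all genes. That gene was Slfn2, a schlafen gene that restrains the activation of quiescent T cells, with 5.73 in DMSO, 8.05 in Senexin B, 6.27 in pLKO.1 and 5.60 in shCDK8. Its DMSO value lay under the limit, so the difference of 2.32 is replaced by 2.07 from the limit, at least 4.20-fold higher. The genes with a probe set on either side of it, Slfn10-ps and Gm20234, were at 0.013 and 0.28, and the schlafen genes Slfn1 and Slfn3 a little farther along at 0.41 and 0.25. The median of the 29 was 0.15 with Senexin B, -0.052 in shCDK8 and 0.069 between the controls. After Ccl5 came Ccl9, E230016K23Rik and Ccl6, at -0.083, -0.033 and -0.63 with Senexin B.

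**Figure D4:**
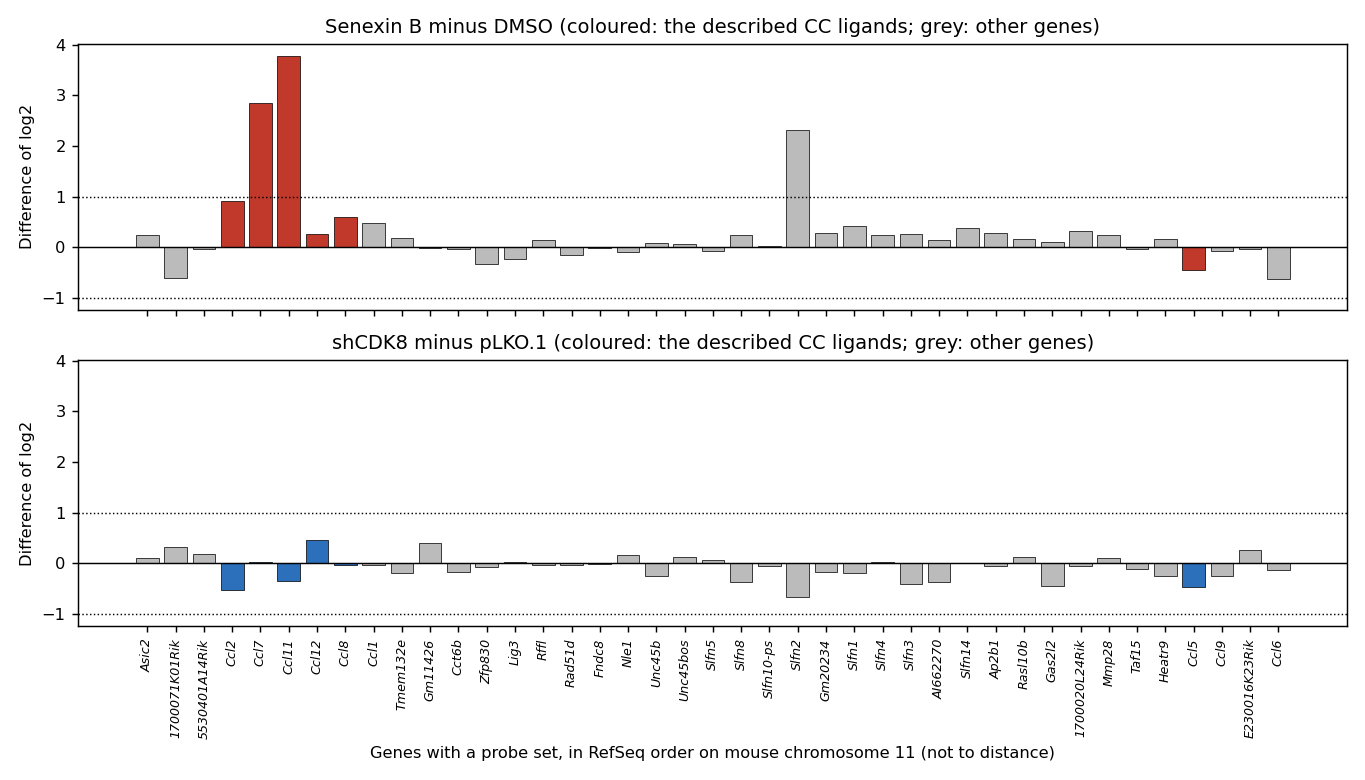
Difference of log2 expression for Senexin B minus DMSO (top) and shCDK8 minus pLKO.1 (bottom) of 41 genes with a probe set, in RefSeq order along mouse chromosome 11 from 3 genes before Ccl2 to 3 genes after Ccl5, not drawn to distance. Coloured bars are the CC ligands described and grey bars the other genes; in the top panel Ccl7, Ccl11 and Slfn2 exceed the dotted 2-fold line, and in the bottom panel no bar does.

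The genes whose values ran most like those of Ccl11 and Ccl7 were found by the Euclidean distance between log2 values, each gene centred on its own mean over the 4 arrays, among 12698 genes that reached the limit and are neither predicted loci, pseudogenes nor small RNAs. The nearest to Ccl11 were Aldh3a1 (0.59), Scnn1g (0.71), Ccl7 (0.81), Lpar4 (0.92) and Bgn (1.20). The nearest to Ccl7 were Aldh3a1 (0.47), Prelp (0.52), Scnn1g (0.63), Bgn (0.68) and Ccl11 (0.81). Aldh3a1 encodes an aldehyde dehydrogenase, Scnn1g the gamma chain of the amiloride-sensitive sodium channel, Lpar4 a receptor for lysophosphatidic acid, and Bgn and Prelp matrix proteoglycans. Aldh3a1, first on both lists, read 9.06 in DMSO, 12.03 in Senexin B, 8.88 in pLKO.1 and 8.36 in shCDK8. Such a distance over 4 arrays is mostly set by the single high array, and it says nothing of shared control. Ccl2 was at a distance of 2.21 from Ccl11 and 1.51 from Ccl7.

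Markers of other cells were read beside these results, since the ligands are also made by leukocytes and fibroblasts and bulk RNA cannot tell more cells of a type from more RNA per cell. Of 10 macrophage markers 3 reached the limit, Cd68, Cd14 and Mrc1, while the defining markers Ptprc, Adgre1, Csf1r and Itgam lay under it on all arrays. The mean level of that list was between 5.96 and 6.03 on the 4 arrays, and 0 of its members were 2-fold apart. Within that mean the markers over the limit went both ways with Senexin B. Cd14, a co-receptor for lipopolysaccharide, read 8.76 in DMSO, 9.55 in Senexin B, 8.82 in pLKO.1 and 8.43 in shCDK8, highest on the same array as Ccl11 and Ccl7 and at 0.79 with Senexin B. Mrc1, the mannose receptor, was at -0.77 and Cd68 at 0.12. The part of these transcripts in the chemokine differences was not tested. Of 7 eosinophil and mast cell markers 0 reached the limit, and of 6 lymphocyte markers 2 did, Cd4 and Cd79a, both reading at most 6.28. The endothelial list had a mean level between 5.69 and 6.04, with 0 of 6 at 2-fold. Of all genes 0.514% were 2-fold higher and 0.194% lower with Senexin B, so counts of 0 in such short lists say little. No marker on these lists was listed at 0 on the log2 scale.

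Several fibroblast markers were higher on the same array as Ccl11 and Ccl7. Of 9 measured, 8 reached the limit and 4 were at least 2-fold higher with Senexin B, beside 0.514% of all genes: the proteoglycan gene Dcn at 2.29, the growth factor receptors Pdgfrb and Pdgfra at 1.49 and 1.24, and Lum, under the limit on all arrays, at 1.06, which became 0 when values were raised to the limit. The mean level of the list was 8.26 in DMSO, 9.02 in Senexin B, 8.43 in pLKO.1 and 7.97 in shCDK8. The collagen genes Col1a1 and Col1a2 read 9.06 and 10.80 in DMSO, so these transcripts were already present without the inhibitor, and they differed by 0.23 and 0.21. Col3a1 was at 0.57 and Thy1 at 0.21, and Fap went the other way at -0.46, from values under the limit on both arrays. In shCDK8 Pdgfrb and Col3a1 were 2-fold lower, at -1.25 and -1.27, beside 0.239% of all genes. Fap and Dcn were at -0.94 and -0.82 in that line, while Pdgfra and Thy1 were at 0.39 and 0.30. The controls differed by 0.52 for Fap and 0.58 for Dcn, and against DMSO the shCDK8 differences were -0.42 and -0.24. The shCDK8 value of Fap lay under the limit, and its difference from pLKO.1 was -0.43 with values raised to the limit. The part of fibroblast-type expression in the chemokine differences was not tested.

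Of 13 markers of colon epithelium, 7 reached the limit, among them Krt8 at 7.12 to 7.25, Cdh1 at 6.50 to 6.74 and Cdx2 at 6.40 to 6.82. Epcam (4.38 to 4.64), Krt19, Vil1, Lgals4, Cldn7 and Cdh17 did not reach it on any array, so the line carries only some of the markers of its tissue of origin. With Senexin B 0 of the 13 were 2-fold apart, beside 0.514% of all genes higher and 0.194% lower. Krt20, the intestinal keratin, was at -0.10 with Senexin B and -1.44 in shCDK8, and it also differed by -0.69 between the controls.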

How the data were processed

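For each array the authors deposited a log2 expression value per probe set, made with RMA and Affymetrix Expression Console per the submitters' processing notes. Not given in the sources used here are versions, settings, the genome build and whether the arrays were normalized jointly. By its design RMA subtracts background and equalizes array distributions, which removes shifts common to all genes and compresses differences near background. Signal over background per probe set was not used here.

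Of 41345 probe sets, 23521 had 1 gene symbol in the platform annotation, 1814 several and 16010 none. Those with 1 symbol stood for 22180 genes, and for genes with several the probe set of the highest mean was kept. Differences of log2 values were computed in Python 3.11.15 (pandas 2.3.3), with no test, as each group had 1 array. RefSeq GRCm38.p6 served for gene order and promoter sequences only. The computation was tested on simulated data.

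The members, gene lists, thresholds and the rule for named genes (list members 2-fold apart or of high mean value, chromosomal neighbours, the 5 nearest genes in pattern) were chosen with earlier results of these data known. A few list members outside that rule are named for their role and were chosen after their values were seen. Alternatives were the other control array, a second quantile normalization, subtraction of a lowess trend (span 0.3), the mean of probe sets, a floor or filter at the 40th percentile, a filter at the 60th percentile, and thresholds of 1.5-fold and 3-fold.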

Additional observations from a re-analysis of the deposited data

How the results depend on the processing

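With 1 array per group no array could be left out. No paired analysis was possible because each group had a single array. The count of 2 members at least 2-fold higher with Senexin B held under repeated quantile normalization, lowess removal, the floor, both filters and the 3-fold threshold. Probe set means could not change a member, since each has 1 probe set, and Ccl11 passed the filter at the 60th percentile only through its high Senexin B value. It was 3 with pLKO.1 as the reference, which adds Ccl2, and 4 at a threshold of 1.5-fold, which adds Ccl2 and Ccl8. The counts of 0 in shCDK8 and of 0 lower with Senexin B held under every alternative run. Only the other control array, repeated quantile normalization, lowess removal and the 1.5-fold threshold could have raised them. The floor, the filters and the 3-fold threshold cannot raise a count of 0. The median difference of the 7 members with Senexin B, 0.60, became 0 with the floor at the 40th percentile, 0.92 with the filter there and 1.88 with the filter at the 60th percentile, since the floor sets Ccl8 and Ccl12 to 0, both filters remove them and the stricter one also removes Ccl20. In shCDK8 the median of -0.038 became -0.24 with the DMSO array as the reference, -0.36 with the filter at the 40th percentile and -0.42 with the filter at the 60th. The control median of -0.16 became 0 with the floor, an alternative that was added for the controls after seeing the data. Leaving out probe set means, 56 single-member values were computed under alternatives, of which 42 moved by less than 0.1 and 14 by more. The floor could not move Ccl2, Ccl5, Ccl7 or Ccl20, which lay over the limit on all arrays. Only Ccl11 and Ccl7 with Senexin B had a 2-fold difference to reverse, and 0 reversed. Some small differences changed sign with the other control array, such as Ccl20 with Senexin B (-0.064 to 0.098) and Ccl7 in shCDK8 (0.031 to -0.24). The number of arrays limits the precision of every value.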
